A study of Arabidopsis thaliana with 4 samples.

Results

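The genes described here are the core and linker histone genes of Arabidopsis thaliana, compared between add3 mutant and wild-type seedlings. A list of 46 loci was used, covering linker histone H1, the core histones H2A, H2B, H3 and H4, and their variants. A locus was included when a probe set of the array was annotated to that gene alone, and 15 of the 46 loci met this rule, each through 1 probe set. They were 3 H1 loci, 9 of 10 H2B loci, the centromeric H3 gene HTR12 and 2 H3.3-like loci. Another 16 loci, which encode H3.1, H3.3 and H4, were represented through probe sets annotated to several of these genes together, and those are described as families. The other 15 loci, 13 of them H2A genes with 1 H2B and 1 H3-like gene, are not analysed here. Of the 15 loci with a probe set of their own, 10 were bright enough to be tested among 13648 tested probe sets.

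The add3 group (ARRESTED DEVELOPMENT 3) consisted of a mutant made with EMS in Col-3 gl1 plants. The gl1 allele leaves plants without leaf hairs. Wild-type plants were Col-0, and effects of add3 and of the genetic background cannot be told apart. Each group had 2 samples on 1 array each, from hypocotyls, cotyledons, meristems, the first true leaves and leaf primordia at developmental stage 1.02. Seeds spent 4 days at 4 °C, and growth was at 29 °C under light for 24 h per day. Nothing in the labels says that the replicates came from separate plantings, so p-values reflect a spread between samples that may be technical.

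Histones package nuclear DNA. Octamers of H2A, H2B, H3 and H4 form the nucleosome core, and H1 binds the linker DNA at the nucleosome's edge. Genes for the canonical core histones, H3.1 among them, are transcribed mainly in S phase, when new nucleosomes are assembled behind the replication fork, so their transcripts are abundant in dividing tissue such as meristems and leaf primordia. Variants such as H3.3 are made and exchanged outside replication as well, and CENH3 marks centromeres. HIS1-3 is a minor linker histone known for its induction by drought and low light.

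The median signal was 48.4 and 48.2 for add3, and 52.1 and 51.4 for wild type. A background level was taken from the brightest of 27 bacterial control probe sets that read as unspiked, and lay at 25.4 and 12.3 on add3 replicates 1 and 2 and at 20.5 and 13.0 on wild-type replicates 1 and 2. Tissue markers had little coverage in the annotation. The shoot gene LHCB4.3, of light harvesting, had signals of 373 and 393 in add3, against 225 and 182 in wild type, and rose (log2 difference 0.88, limma adjusted p = 0.0184). It was the one tissue marker bright enough to be tested, and its part in the histone values was not tested. Of 8 root genes the root hair expansin genes EXPA7 and EXPA18 had probe sets. EXPA7 read 12.1 and 5.87 in add3, against 26.8 and 17.9 in wild type, and exceeded background on the wild-type arrays alone. EXPA18 read 30.4 and 31.5 in add3, against 5.16 and 29.0 in wild type, where replicate 1 was not above background. The stem cell gene CLV3 read 2.54 and 1.56 in add3, against 21.7 and 3.97 in wild type, and exceeded background on wild-type replicate 1 alone. The sperm H3 gene MGH3 read 1.39 to 4.90, below background on every array. The leaf hair gene TRY read 15.0 and 20.0 in add3, against 10.4 and 3.16 in wild type, and exceeded background on add3 replicate 2 alone.

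Among the 10 tested loci, the linker histone genes AT2G30620 and HIS1-3 fell in add3 and the H2B gene AT2G37470 rose. Over all tested probe sets 7.31% were called by the same rule, with 4.17% rising and 3.14% falling (limma with Benjamini-Hochberg adjustment over all tested probe sets, threshold 0.05). The median log2 difference, add3 minus wild type, was -0.52 over the 3 linker loci and 0.31 over the 6 tested replication-dependent loci, which were all H2B genes. It was -0.05 over all tested probe sets. The variant class held 1 tested locus, HTR12, with a log2 difference of 0.09. In whole shoots, fewer cells of a type and less RNA per cell cannot be told apart. Where the gene table gives only a locus name, as for AT2G37470, the histone type comes from general knowledge of the family.

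**Figure D1:**
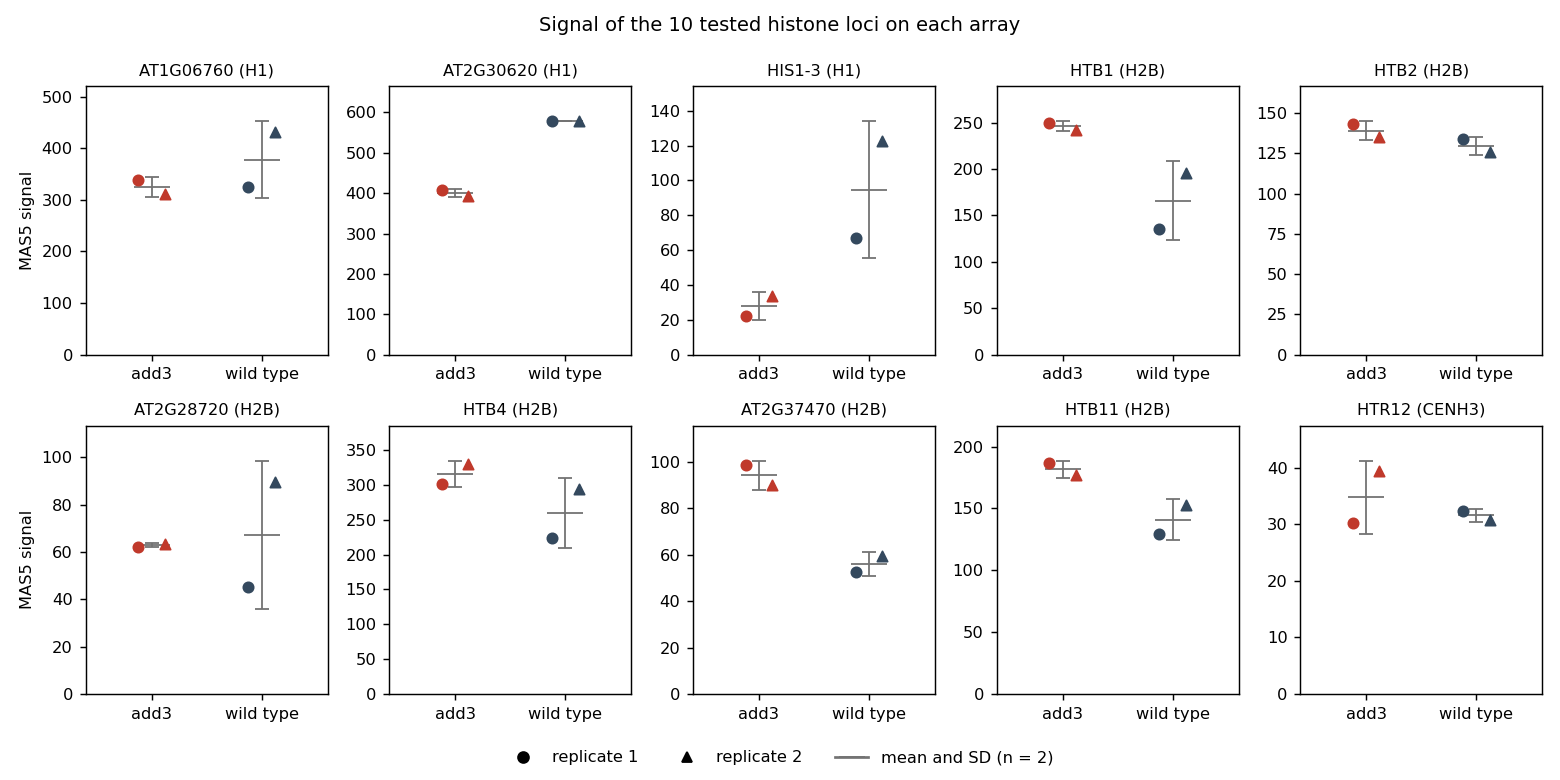
MAS5 signal (linear axis from 0, a scale per panel) of each tested histone locus on the 2 add3 and 2 wild-type arrays, with the mean and SD of each group in grey. AT2G30620 and HIS1-3 are lower on both add3 arrays, AT2G37470 is higher on both, and HTR12, AT2G28720 and AT1G06760 overlap between the groups.

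The H1 genes were lower in add3 in each of the 3 estimates, and 2 of these genes passed the test. Among all tested probe sets 44.1% were above 0 and 3.14% were called as falling. AT2G30620 had signals of 407 and 393 in add3, against 578 and 578 in wild type. The arrays of each group lay close together and the groups did not overlap, which was true of 32.3% of all tested probe sets in this direction. Its log2 difference was -0.52 (SE 0.11, limma adjusted p = 0.0423), or 0.699-fold. The gene's extent overlaps that of AT2G30630 in the gene table used, and whether the probe set separates them is not given in the sources used here.

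HIS1-3 had signals of 22.0 and 33.4 in add3, against 67.0 and 122 in wild type. The highest add3 signal was below the lowest wild-type signal, and add3 replicate 1 was not above its background level of 25.4. The log2 difference was -1.38 (SE 0.28, limma adjusted p = 0.0336), with a 95% interval from -2.03 to -0.73. Part of this fall therefore comes from an array with no usable level, and the wild-type arrays themselves differed by a factor of 1.83.

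AT1G06760, the third H1 gene, had signals of 338 and 311 in add3, against 326 and 431 in wild type. Wild-type replicate 2 was the highest array and the groups overlapped. The log2 difference of -0.20 did not pass the test (SE 0.16, limma adjusted p = 0.462, 95% interval -0.57 to 0.17). It was -0.0056 without wild-type replicate 2 and -0.40 without wild-type replicate 1. In the gene table its extent overlaps that of AT1G06750.

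H2B genes leaned upward, with 5 of 6 tested loci above 0, against 44.1% of all tested probe sets, and 1 past the threshold. AT2G37470 had signals of 98.8 and 89.9 in add3, against 52.4 and 59.5 in wild type. Both add3 arrays were clearly above both wild-type arrays, and the gap between groups exceeded the spread within either. The log2 difference was 0.64 (SE 0.15, limma adjusted p = 0.0465), or 1.56-fold.

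HTB1 had signals of 250 and 243 in add3, against 136 and 196 in wild type. The add3 arrays agreed closely and the wild-type arrays did not, with replicate 2 at 1.44 times replicate 1. The log2 difference of 0.56 had an SE of 0.18 and did not pass the test (limma adjusted p = 0.105). HTB11 had signals of 187 and 177 in add3, against 129 and 153 in wild type (log2 difference 0.34, limma adjusted p = 0.170). HTB4 had signals of 302 and 329 in add3, against 224 and 294 in wild type (log2 difference 0.28, limma adjusted p = 0.301). Wild-type replicate 1 was the lower wild-type array for both. Wild-type replicate 2 came near the add3 values for HTB4, and lay between replicate 1 and the add3 values for HTB11.

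HTB2 differed least among the H2B genes whose groups did not overlap, with signals of 143 and 135 in add3, against 134 and 126 in wild type. Its log2 difference was 0.09 (SE 0.13, 95% interval -0.21 to 0.40). AT2G28720 had signals of 62.2 and 63.5 in add3, between the wild-type signals of 45.0 and 89.4. Its log2 difference of -0.02 therefore averages over wild-type arrays that differed by a factor of 1.99. Both add3 signals were above both wild-type signals for 5 of the 6 H2B loci, against 24.8% of all tested probe sets. After scaling to a common median, or after quantile normalization, AT2G28720 was above 0 as well. The H2B genes belong to 1 family, and whether signal of 1 copy reached the probes of another was not tested.

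The other 3 H2B loci with a probe set were too dim to be tested. AT5G02570 was the brightest locus outside the filter, with signals of 34.2 and 28.0 in add3, against 24.4 and 12.1 in wild type, of which wild-type replicate 2 was not above background. This locus overlaps the H2A gene HTA12 in the gene table, so its signal may not be its own. AT3G53650 had signals of 19.9 and 15.0 in add3, against 6.04 and 2.22 in wild type, and add3 replicate 2 was the only array on which it exceeded background. AT3G09480 had signals of 15.2 and 14.9 in add3, against 10.4 and 14.9 in wild type. It exceeded background on replicate 2 of each group.

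Of the H3 variants with a probe set of their own, HTR12, which encodes CENH3, sat just inside the filter with a mean signal of 33.2, and the nearest locus outside it was AT5G02570 at 24.7. HTR12 had signals of 30.2 and 39.4 in add3, against 32.4 and 30.8 in wild type. The groups overlapped, and the log2 difference of 0.09 had a 95% interval from -0.38 to 0.57, and was -0.045 without add3 replicate 2. The H3.3-like loci AT1G13370 and AT1G75600 lay below background on all 4 arrays, at 8.13 or less and 0.528 or less, and have no usable level.

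**Figure D2:**
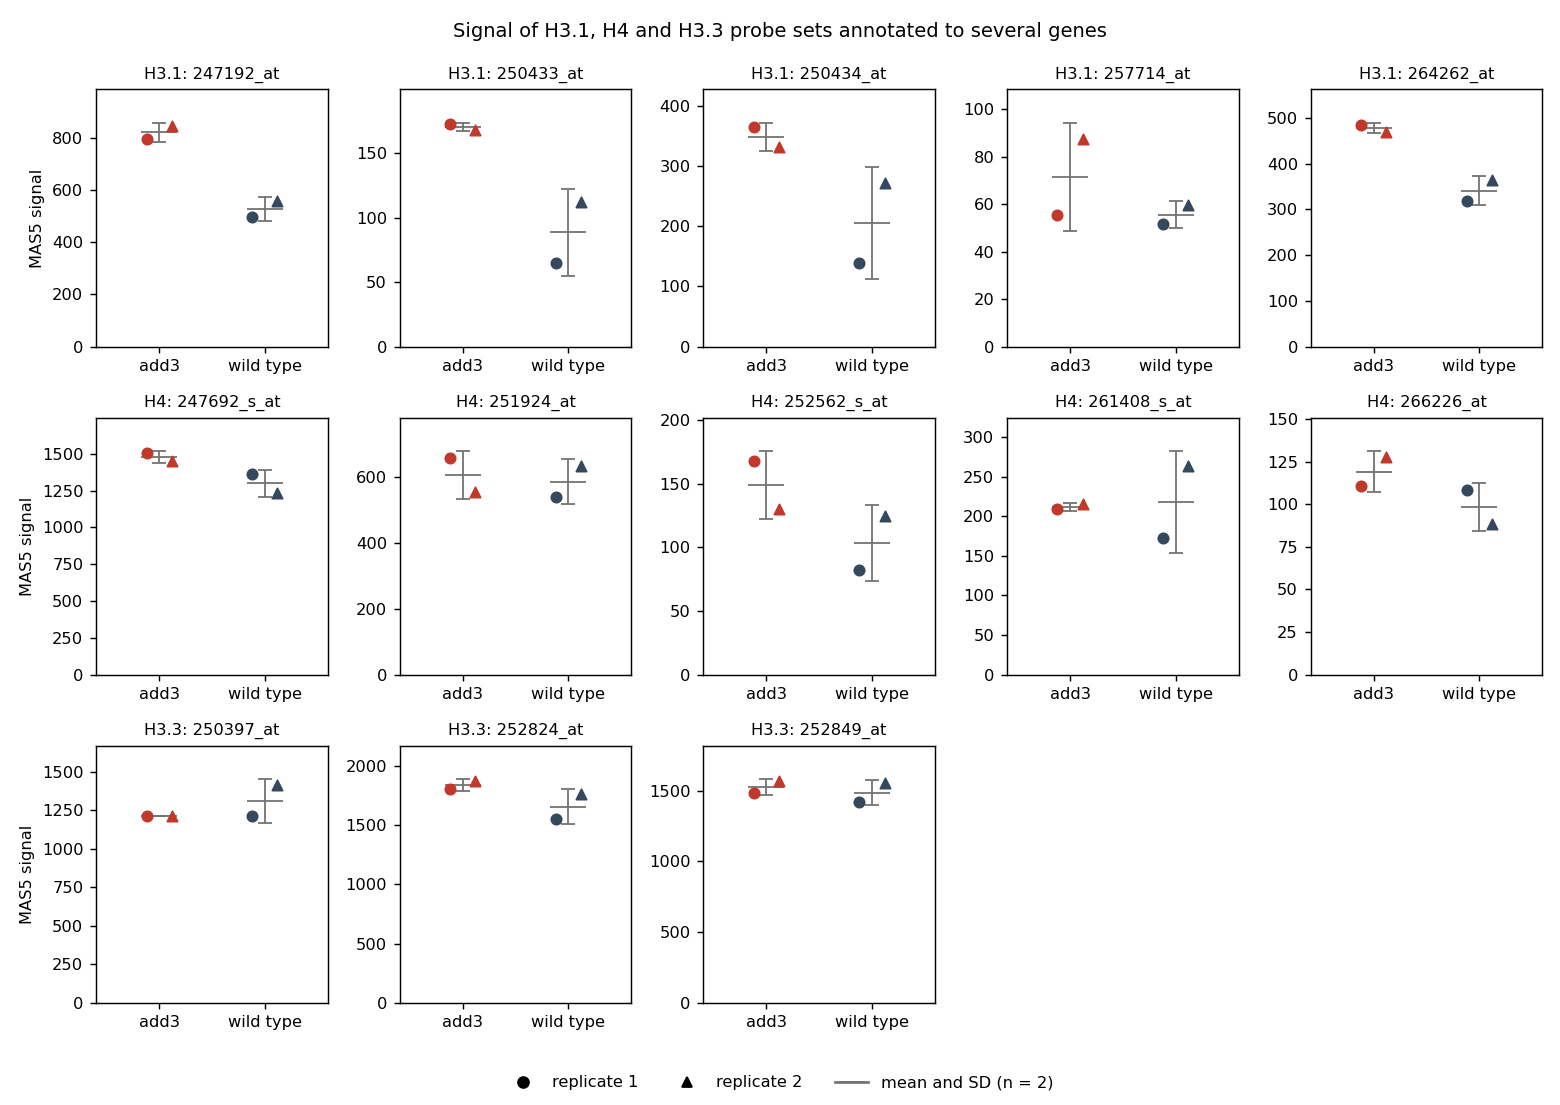
MAS5 signal (linear axis from 0, a scale per panel) of the probe sets annotated jointly to 5 H3.1, 8 H4 or 3 H3.3 genes, on 2 add3 and 2 wild-type arrays, with group mean and SD in grey. For H3.1, 4 of 5 probe sets have both add3 signals above both wild-type signals, against 3 of 5 for H4, 1 of 3 for H3.3 and 24.8% of all tested probe sets.

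The H3.1, H4 and H3.3 genes were read through 13 tested probe sets, each annotated to all genes of its type. No value can therefore be assigned to 1 gene through the annotation used. Whether a probe set reads 1 of these genes alone is not given in the sources used here. These probe sets lie outside the inclusion rule and were taken up after their values had been seen. Probe sets of a type may also read the same transcripts and do not count as separate evidence. For H3.1, the form deposited during replication, all 5 estimates were above 0 with a median log2 difference of 0.63, and 1 of the 5 rose, against 44.1% above 0 and 4.17% that rose among all tested probe sets.

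The H3.1 probe set 247192_at had signals of 796 and 846 in add3, against 496 and 559 in wild type (log2 difference 0.63, SE 0.12, limma adjusted p = 0.0306). The groups were well apart. Probe set 264262_at had signals of 485 and 469 in add3, against 318 and 363 in wild type (log2 difference 0.48, limma adjusted p = 0.0655). Probe set 250433_at had signals of 172 and 168 in add3, against 64.6 and 112 in wild type (log2 difference 0.90, limma adjusted p = 0.0559). Those groups did not overlap either, although the wild-type arrays of 250433_at differed by a factor of 1.74.

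Probe set 250434_at had signals of 365 and 331 in add3, against 140 and 271 in wild type (log2 difference 0.79, limma adjusted p = 0.118). Probe set 257714_at had signals of 55.5 and 87.5 in add3, against 51.5 and 59.6 in wild type (log2 difference 0.28, limma adjusted p = 0.444). The last was the 1 H3.1 probe set whose groups overlapped, because add3 replicate 1 lay between the wild-type arrays. Without add3 replicate 2 its log2 difference was 0.0022.

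For H3.3, the replacement form, none of 3 probe sets passed the test and their log2 differences ran from -0.11 to 0.15. Probe set 250397_at had signals of 1210 and 1213 in add3, against 1209 and 1410 in wild type, with a 95% interval of the log2 difference from -0.39 to 0.17. Probe set 252849_at had signals of 1486 and 1566 in add3, against 1423 and 1552 in wild type (interval -0.22 to 0.29). Both overlapped between the groups. Probe set 252824_at had signals of 1807 and 1877 in add3, against 1553 and 1762 in wild type (interval -0.11 to 0.42), with no overlap.

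The 5 H4 probe sets gave log2 differences from -0.01 to 0.50 with a median of 0.18, and none passed the test. Probe set 252562_s_at gave the highest of these, with signals of 168 and 130 in add3, against 82.1 and 125 in wild type (limma adjusted p = 0.188). Its log2 difference was 0.23 without wild-type replicate 1, where 266226_at was highest at 0.38, and 0.33 without add3 replicate 1. The brightest, 247692_s_at, had signals of 1506 and 1448 in add3, against 1365 and 1235 in wild type (log2 difference 0.18, limma adjusted p = 0.338). Both lay above wild type without overlap, as did 266226_at (log2 difference 0.25), whereas 251924_at and 261408_s_at overlapped. The signs of those 2, and of the H3.3 probe set 252849_at, depended on how the arrays were scaled and on which array was left out.

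**Figure D3:**
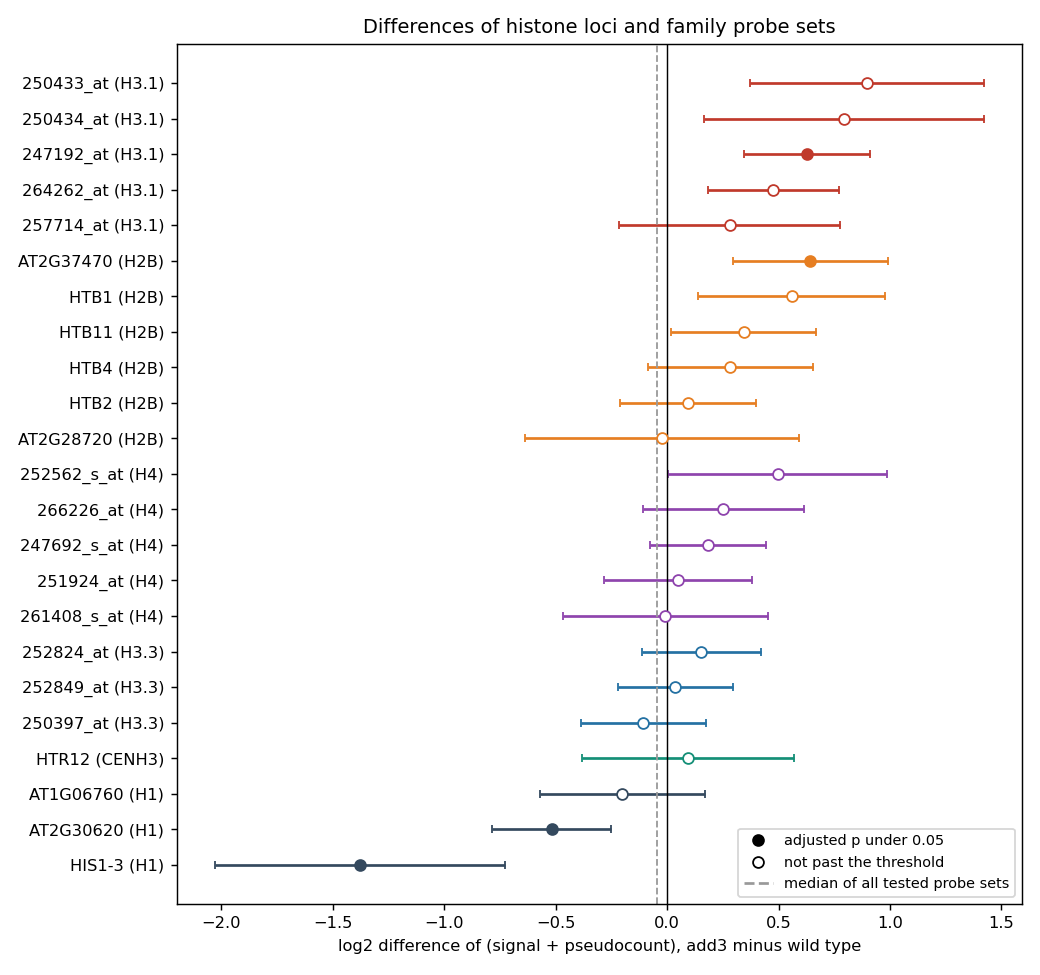
Log2 difference of signal plus pseudocount, add3 minus wild type, with 95% intervals from limma for 10 histone loci and 13 family probe sets (filled where the adjusted p was under 0.05). H3.1 probe sets lie right of 0, H3.3 probe sets lie around it, and the 3 H1 loci lie left of it.

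To set the replication-dependent histones against H3.3 within each array, the mean log2 signal of the H3.3 probe sets was subtracted from that of each family, and the result was centred on the 4 arrays. The choice of families followed the values, so these are descriptions with no test. H3.1 relative to H3.3 stood at 0.27 and 0.31 on the add3 arrays, against -0.42 and -0.17 on the wild-type arrays. The difference of 0.59 exceeded the 0.25 between the wild-type arrays. H2B relative to H3.3 stood at 0.18 and 0.11 on the add3 arrays, against -0.22 and -0.07 on the wild-type arrays.

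H4 relative to H3.3 differed less, at 0.15 and 0.02 on the add3 arrays, against -0.09 and -0.08 on the wild-type arrays. H1 ran the other way, at -0.38 and -0.34 on the add3 arrays, against 0.26 and 0.47 on the wild-type arrays. In each of these 4 ratios the groups were apart. For H4 the difference of 0.17 was near the gap between the add3 arrays. Such ratios do not say which family stayed level.

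**Figure D4:**
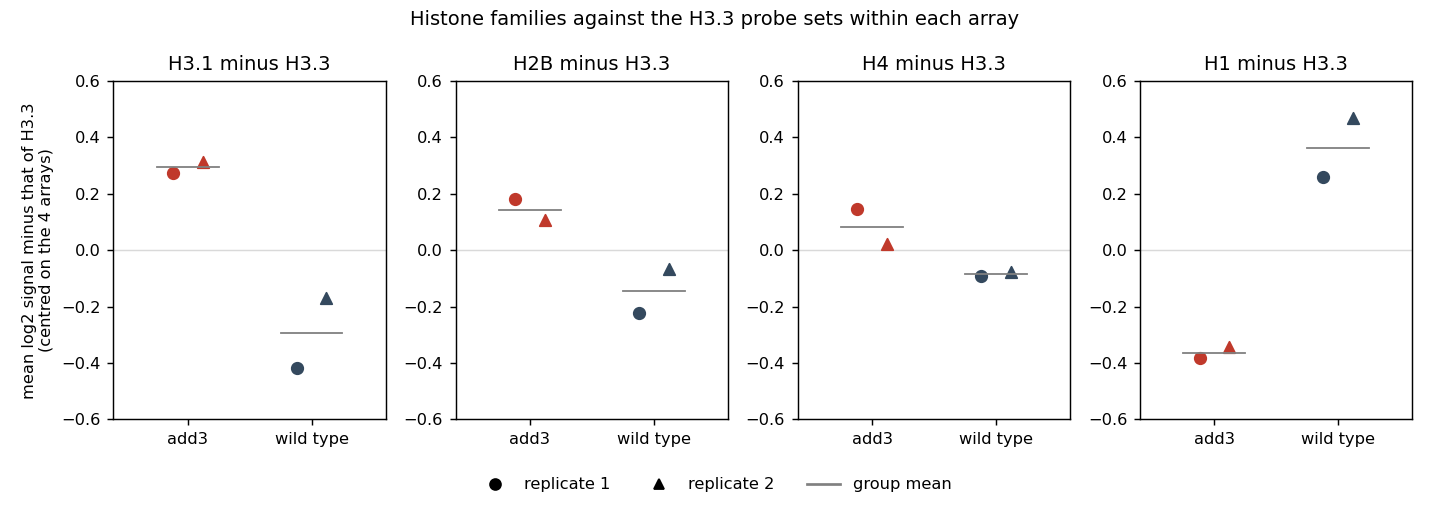
Mean log2 signal of H3.1, H2B, H4 and H1 probe sets minus that of the H3.3 probe sets on the same array, centred on the 4 arrays (vertical axis, log2 units), for add3 and wild type. H3.1, H2B and H4 are higher relative to H3.3 on both add3 arrays, and H1 is lower on both.

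Wild-type replicate 1 had the lowest signal of the 4 arrays for 13 of the 16 tested H2B, H3.1 and H4 probe sets, a position it held for 25.9% of all tested probe sets and for the 3 H3.3 probe sets. The 3' to 5' signal ratio of control transcripts was highest on that array in 5 of 6 control pairs. In the remaining pair, of actin, the ratio was lowest on that array, at 5.04, against 5.47 to 7.23 on the others. For GAPDH it was 3.01 and 2.88 on the add3 arrays, against 4.05 and 3.13 on wild-type replicates 1 and 2. The part of this array's RNA in the H2B and H3.1 values was not tested. The median over the 6 H2B loci was 0.18 when it was left out, and 0.46 when wild-type replicate 2 was.

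Without wild-type replicate 1 the log2 differences of 250433_at and 250434_at were 0.55 and 0.34, and without wild-type replicate 2 both were 1.24 and passed the test (limma adjusted p = 0.0222 and 0.0213). HTB4 was at 0.095 without wild-type replicate 1 and at 0.47 without replicate 2, and AT2G28720 at -0.44 and 0.39. HTB1 moved in the same way, to 0.31 without wild-type replicate 1 and to 0.81 without replicate 2, where it passed (limma adjusted p = 0.0341). AT2G37470 stayed between 0.57 and 0.72 whichever array was left out, and its call was lost each time (limma adjusted p = 0.0645 to 0.190). AT2G30620 stayed between -0.54 and -0.49 and also lost its call each time (0.0637 to 0.211). HIS1-3 kept its call except without wild-type replicate 2, where the log2 difference was -0.997 (limma adjusted p = 0.0707). The H3.1 probe set 247192_at kept its call when wild-type replicate 2 was the array left out, and lost it in the other 3 cases. Without a filter on low signals each of these 4 calls was lost (limma adjusted p = 0.0749 to 0.121 over 22746 probe sets), as was that of AT2G30620 with median scaling (0.0646). Without the intensity trend AT2G37470, AT2G30620 and 247192_at also missed the threshold (0.0580 to 0.0750).

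**Figure D5:**
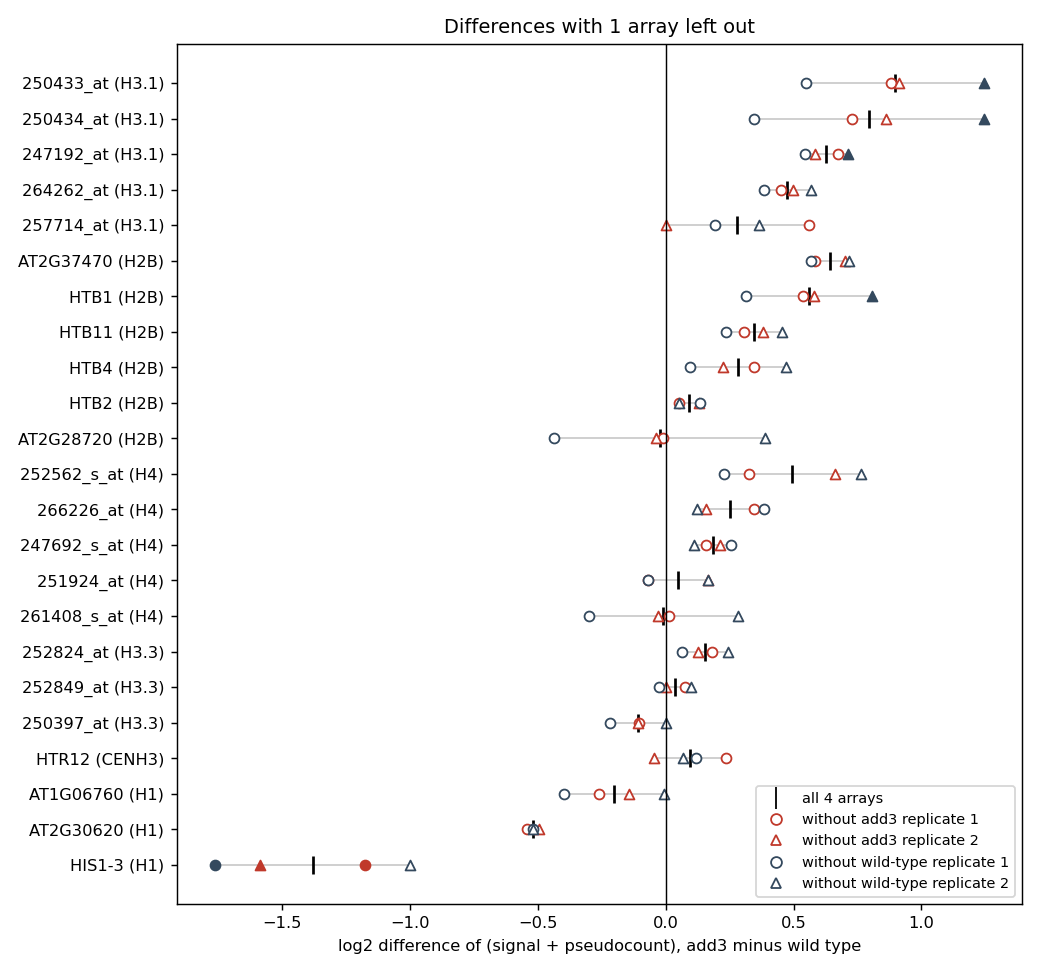
Log2 difference, add3 minus wild type, for each histone locus and family probe set with all 4 arrays (bar) and with 1 array left out (points, filled where the adjusted p was under 0.05). Points without wild-type replicate 1 lie left of those without replicate 2 for most H2B and H3.1 probe sets, and AT2G30620 hardly moves.

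Genes that act beside histones were sparsely covered. Of 26 DNA replication loci 3 were tested, none passed the threshold and all 3 were above 0 without overlap between groups, against 44.1% of all tested probe sets above 0 and 24.8% with both add3 signals above both wild-type signals. PRL, a subunit gene of the replicative MCM helicase, had signals of 171 and 183 in add3, against 130 and 116 in wild type (log2 difference 0.49, limma adjusted p = 0.0717). POLA3, a gene of DNA polymerase alpha and primase, had signals of 75.8 and 77.1 in add3, against 49.8 and 53.9 in wild type (log2 difference 0.47, limma adjusted p = 0.102). For these genes wild-type replicate 1 was not lower than replicate 2 throughout, since PRL read higher on it.

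Of 23 loci for histone chaperones and chromatin assembly 4 were tested and none passed the threshold. Of these 4 loci 1 was above 0, against 44.1% of all tested probe sets, and the median log2 difference was -0.20. ASF1B, which encodes a chaperone that hands H3 and H4 to assembly factors, had signals of 42.8 and 62.0 in add3, against 90.2 and 75.1 in wild type (log2 difference -0.56, limma adjusted p = 0.122). ATRX, a chromatin remodelling gene linked to H3.3 deposition, had signals of 43.5 and 48.9 in add3, against 61.3 and 58.2 in wild type (log2 difference -0.30, limma adjusted p = 0.281). For neither gene did the groups overlap, which was true of 32.3% of all tested probe sets in this direction. None of 6 high mobility group loci had a probe set of its own in the annotation used.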

How the data were processed

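RNA of 2 add3 and 2 wild-type samples was hybridised to Affymetrix ATH1 arrays. Sample titles gave the groups and replicate numbers. The deposited table holds linear MAS5 signal intensities, 1 for each probe set on each array, and MAS5 is named per the submitters' processing notes. Its version is not given in the sources used here, nor are detection calls. Probe sets were named through the platform annotation (1 gene for 13513 of 22746 non-control probe sets) and the TAIR10.1 gene table. The histone list, its classes and the companion lists were chosen with earlier results of these data known.

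The authors' scaling was kept, and signals were converted to log2(signal + 12.5), a scale on which dim genes change less. The 13648 probe sets whose mean signal reached the 40th percentile (33.2) were fitted in R 4.3.3 with limma 3.58.1. The test was two-sided from lmFit and eBayes, with a variance trend on intensity and 2 residual degrees of freedom, and p-values were adjusted by the Benjamini-Hochberg method. Every listed locus with a probe set of its own was named, and of each companion list the called members or the 2 with the smallest p. The fit was tested on simulated data with known changes. With true variances drawn from the fitted prior, which is the model limma assumes, false calls made up about the share that the threshold allows. With true variances set to the moderated variances of the real fit, the scheme tried first, they made up more than that share in most draws, so the adjusted p-values just under the threshold may be too small. Alternatives were the pseudocount, filter, scaling, variance trend, threshold, a replicate block and each array left out. With 4 arrays, their number limits the precision. Same-numbered samples did not vary together (correlation of deviations -0.12), so the main fit has no block. A class comparison without H2B could not be made, since H2B loci were the tested replication-dependent ones. Promoter and protein sequences were not used here.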

Additional observations from a re-analysis of the deposited data

How the results depend on the processing

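Calls over all probe sets numbered 997, and 13 with no filter, 555 without the intensity trend, 1967 at a threshold of 0.10 and 437 to 817 with 1 array left out. Scaling the arrays to 1 common median gave 937 rises and 320 falls, so rises made up 74.5% of calls in place of 57.1%. Against 3 histone loci past the threshold, the count was 0 with no filter (limma, 6 loci at an unadjusted p under 0.05), 1 without the intensity trend and 1 whichever array was left out. That locus was HIS1-3, except without wild-type replicate 2, where it was HTB1 and none of the 3 passed. The replicate block, with the replicate number as a term, gave 1 histone locus past the threshold and 2 H3.1 probe sets in place of 1. Crossing the replicate numbers, an alternative added after seeing the data, gave 1909 calls over all probe sets and 4 H3.1 probe sets. No H3.1 probe set passed with no filter or without the trend (0 in limma, 4 at an unadjusted p under 0.05 in each), 2 passed with a filter at the 60th percentile, 3 with median scaling, 3 at a threshold of 0.10 and 0 to 3 with 1 array left out. The H2B median of 0.31 was 0.41 with median scaling and 0.18 to 0.46 with 1 array left out. With no filter more probe sets were adjusted for, and the intensity trend was fitted anew on all of them. Fewer arrays were fitted where 1 was left out. The causes of these changes were not tested. Under the alternatives run, AT2G37470 stayed between 0.56 and 0.74, AT2G30620 between -0.58 and -0.42 and HIS1-3 between -1.76 and -0.997. The linker median of -0.52 was -0.42 with median scaling and -0.36 with a filter at the 60th percentile. The variant class, HTR12 alone, was at -0.045 without add3 replicate 2, against 0.09 with all arrays. HIS1-3, HTR12, AT2G28720 and 257714_at were too dim for the filter at the 60th percentile, and no variant locus remained there.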
